A study of Mus musculus with 20 samples.

Results

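The comparison of 10% with 2% RPS set the highest against the lowest dose of raw potato starch in the cecum of mice on a Western-type diet. It used 10 of the 20 cecum libraries of the series, 5 from mice fed with 10% RPS and 5 from mice fed with 2% RPS, chosen by the treatment in the sample labels. All mice were C57BL/6. Every mouse ate the TWD (Total Western Diet, a rodent diet built on American nutrient intakes) for 6 weeks and then spent 3 weeks on the TWD with 0, 2, 5, or 10% RPS, so the mice compared here share both the TWD and some RPS, and neither group is a starch-free control. The labels name no cage or litter, and p-values measure the spread between these mice. RNA came from sections of the cecum, a mixture of epithelium, muscle, and lymphoid tissue. Fewer cells of a type and less RNA per cell cannot be told apart in such a mixture. The share of each tissue in a section was not tested.

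RPS is a granular starch that resists digestion in the small intestine and is fermented by bacteria in the cecum and colon, with butyrate and other short-chain fatty acids (SCFAs) as products. Butyrate is the main fuel of colonic epithelium, and burning it consumes oxygen close to the crypt surface, which is why hypoxia targets are often read in studies of fermentable fiber. The cecum also carries lymphoid follicles, where B cells mature and give rise to the plasma cells that make IgA. Dual oxidases and inducible nitric oxide synthase are enzymes through which the epithelium answers microbes at its surface.

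The 10 libraries held between 20376315 and 42687283 counts. Of the 19887 genes counted, 14952 passed the filter on low counts and were tested. The summed level of 7 epithelial markers was 29222 to 40321 CPM (counts relative to library size, scaled between the libraries) with 2% RPS and 22246 to 36732 CPM with 10% RPS. Markers of squamous epithelium were close to absent in both groups (0.235 to 1.19 CPM over 4 genes), and the exocrine pancreas markers summed to 39.1 to 55.3 CPM, with 1 of 4 of them passing the filter. Mitochondrial transcripts took 9.0 to 13.8% of the counts, and the highest share belonged to mouse 3 on 2% RPS.

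No gene passed the threshold between the doses in edgeR's quasi-likelihood test, with the threshold at 0.05 for the Benjamini-Hochberg adjusted p and at 1.5-fold for the difference. The count was 0 higher and 0 lower genes of 14952 tested, a share of 0% in each direction, and the lowest adjusted p was 0.38. At an unadjusted p under 0.05 there were 358 genes with a higher estimate (2.39%) and 363 with a lower one (2.43%), 721 together. A uniform spread of p-values would put 747.6 genes there. DESeq2's Wald test on the same counts passed 4 genes higher and 4 lower, each 0.0243% of the 16468 genes to which it gave an adjusted p.

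Intervals were narrow for most genes. The 95% interval of the difference between 10 and 2% RPS lay within 1.5-fold in either direction for 10547 genes (70.5%), and the median standard error was 0.13 on the log2 scale. Of the other 4405 genes, 3919 had an interval that held both no change and a change beyond 1.5-fold, and 486 had one that left out no change before any adjustment for the number of genes.

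The share of variance of log2 CPM that lay between the 2 diets was 17.6%. In a one-sided exact permutation test over all ways of dividing these mice into groups of 5, p was 0.143, and the median share over those divisions was 9.27%. That value depended on single mice. Without mouse 3 on 2% RPS the share was 30.9% (exact permutation p = 0.0238), and without mouse 2 on 10% RPS it was 25.2% (exact permutation p = 0.0476). Leaving out any of the other mice gave 15.1 to 18.6%.

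Lymphoid genes varied widely between mice, and the spread ran across the diets. The summed level of 4 B cell markers (Ms4a1, Cd79a, Cr2, and Fcer2a) was 3.31, 2.05, 204, 24.1, and 5.62 CPM in mice 1 to 5 on 2% RPS and 136, 8.45, 175, 136, and 168 CPM in mice 1 to 5 on 10% RPS. In 4 of 5 mice on 10% RPS this level was above 4 of 5 mice on 2% RPS. Mouse 3 on 2% RPS had the highest level of all 10, and mouse 2 on 10% RPS lay among the low 2% RPS mice. In mice without RPS the same sum was 3.40 to 120 CPM with a median of 12, and with 5% RPS it was 4.04 to 80.7 CPM with a median of 42.0, values that were scaled in their own pair of diets and are set beside these only as a description.

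The first principal component carried 41.9% of the variance and ordered the mice as the B cell markers did, except for mice 1 and 4 on 10% RPS, whose marker sums both round to 136 CPM. Its scores were -32.9, -41.4, 44.3, -19.7, and -25.2 in mice 1 to 5 on 2% RPS and 22.5, -23.9, 30.4, 20.2, and 25.8 in mice 1 to 5 on 10% RPS. The 5 mice with positive scores were those whose B cell marker sum was at least 136 CPM.

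**Figure D1:**
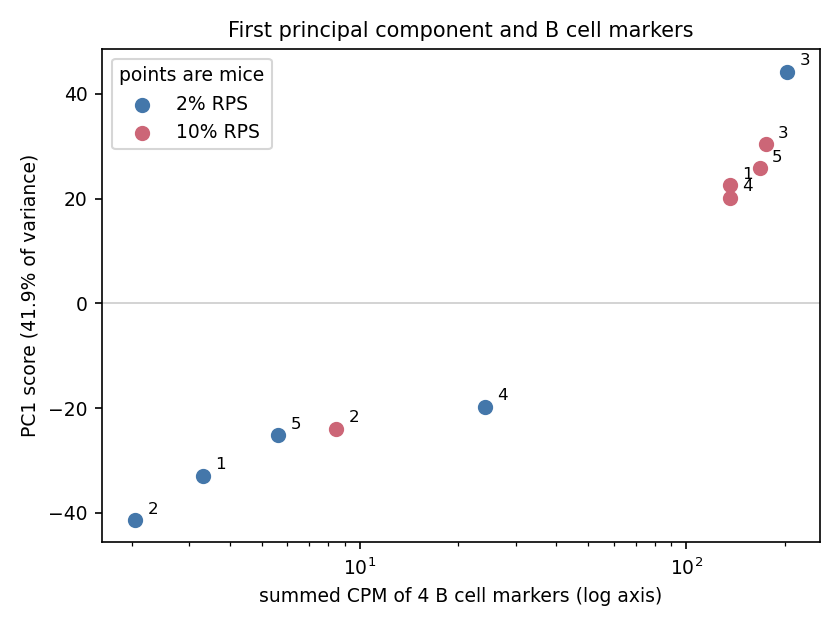
Score on the first principal component (vertical axis, 41.9% of the variance of log2 CPM) against the summed CPM of 4 B cell markers (horizontal log axis), with 1 numbered point per mouse. Mouse 3 on 2% RPS sits with 4 of the 10% RPS mice at the upper right, and mouse 2 on 10% RPS sits with 4 of the 2% RPS mice.

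All 22 tested genes of the B cell and follicle list, which holds B cell receptor parts, germinal center genes, and follicle chemokines, had a higher estimate with 10% RPS, and none passed the threshold. The median log2 fold change was 1.21, against 0.01 over all genes tested, of which 7752 had a higher and 7200 a lower estimate. Without mouse 3 on 2% RPS the median was 3.40. With the B cell marker sum as a covariate it was -0.04, but the 4 markers are all members of this list, so that value says nothing of its own. In the list 2 genes had an unadjusted p under 0.05. Ebf1, a transcription factor of the B lineage, had a log2 fold change of 0.74 (95% interval 0.00 to 1.48), and S1pr2, which holds germinal center B cells in place, 0.30 (0.01 to 0.59). Those next in p were Cd83, a surface protein of activated B cells and dendritic cells, with 1.32 (-0.25 to 2.89), and Ms4a1, which encodes CD20, with 2.06 (-0.65 to 4.77). Without mouse 3 on 2% RPS these were 2.24 and 4.02. The adjusted p of each was 0.985.

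MHC class II genes, which present peptides to CD4 T cells and are high in B cells, followed the same mice. Their summed level over 10 genes was 347, 250.5, 1413, 441, and 329 CPM with 2% RPS and 897, 337, 1214, 1017, and 1095 CPM with 10% RPS. Mouse 3 on 2% RPS was again the highest, and mouse 2 on 10% RPS was again among the 2% RPS mice. All 10 had a higher estimate, with a median log2 fold change of 0.82 that was 1.43 without mouse 3 on 2% RPS, 0.38 with 1 surrogate variable as a covariate, and -0.10 with the B cell marker sum as a covariate. That sum was itself higher in most mice on 10% RPS than in most on 2% RPS. Fits that hold it, here and in the lists below, therefore cannot tell B cell level and diet apart. H2-Aa, an alpha chain of MHC class II, had a log2 fold change of 0.85 (95% interval 0.01 to 1.68), Ciita, the transactivator of the class, 0.91 (-0.25 to 2.08), and H2-Ob, which tunes peptide loading in B cells, 1.68 (-0.73 to 4.08). Leaving out mouse 3 on 2% RPS moved Ciita to 1.67 and H2-Ob to 3.50.

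T cell markers were also highest in mouse 3 on 2% RPS, with 8.65 to 35.1 CPM in 2% RPS mice and 7.13 to 27.3 CPM in 10% RPS mice. Mouse 2 on 10% RPS had the lowest level of all 10, and the order among the low mice differed from that in B cell markers. Of 23 tested T, NK, and intraepithelial lymphocyte genes 16 had a higher and 7 a lower estimate, and 0 had an unadjusted p under 0.05. Their median log2 fold change was 0.18, but it was -0.16 with 1 surrogate variable as a covariate, -0.48 with the B cell marker sum as a covariate, and 0.49 without mouse 3 on 2% RPS. Lyz2, the lysozyme of macrophages, had a log2 fold change of 0.86 (95% interval -0.04 to 1.75), and 14 of 17 macrophage genes had a higher estimate with a median of 0.22, which was 0.03 with the B cell marker sum as a covariate. The macrophage markers summed to 61.2 to 140.3 CPM with 2% RPS and 80.3 to 104 CPM with 10% RPS, and the group ranges overlapped.

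**Figure D2:**
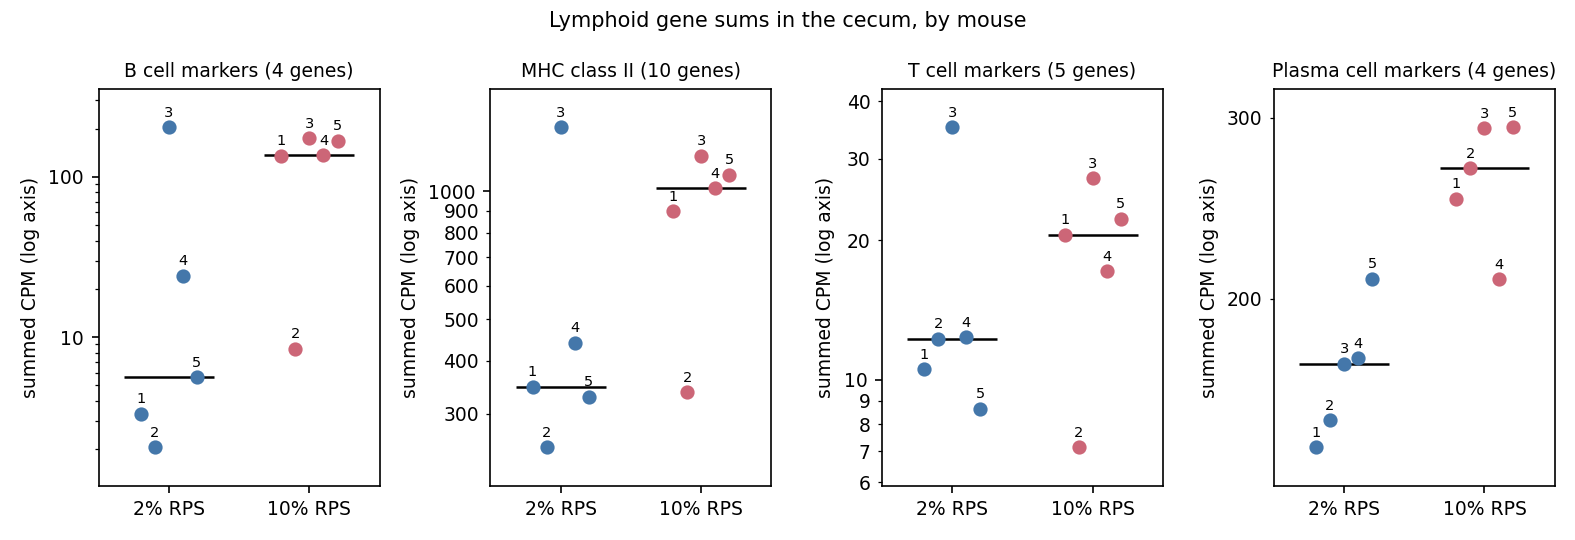
Summed CPM (vertical log axes) of B cell markers, the MHC class II list, T cell markers, and plasma cell markers in each mouse on 2 or 10% RPS, with points numbered by mouse and a line at the group median. In the first 3 panels mouse 3 on 2% RPS is the highest of all 10 and mouse 2 on 10% RPS the lowest of its diet, whereas in the plasma cell panel the groups meet at 209 CPM.

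Plasma cell genes, which serve the making of IgA, had higher estimates in most cases. Jchain, the peptide that joins IgA into dimers, was 141, 149.8, 169, 173, and 207 CPM in mice 1 to 5 on 2% RPS and 245, 264, 289, 206, and 289.8 CPM in mice 1 to 5 on 10% RPS. The groups met only at mouse 5 on 2% RPS and mouse 4 on 10% RPS. Its log2 fold change was 0.62 (95% interval 0.36 to 0.89), with an adjusted p of 0.546 in edgeR and 0.00486 in DESeq2.

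Igha, the heavy chain constant region of IgA, was 430.3, 378, 839, 522, and 580.1 CPM with 2% RPS and 741, 779, 805, 660.4, and 809.5 CPM with 10% RPS. Mouse 3 on 2% RPS had the highest level of the 10, while the other 2% RPS mice were all below the 10% RPS mice. Igha had a log2 fold change of 0.46 (95% interval 0.07 to 0.86). Iglc1, a lambda light chain constant region, had a log2 fold change of 1.55 (0.38 to 2.73), and Tnfrsf17, the survival receptor of plasma cells, 0.71 (0.01 to 1.40), or 0.44 without mouse 2 on 10% RPS. Over the 15 tested genes of the plasma cell and IgA list 12 had a higher estimate, 4 of them with an unadjusted p under 0.05, and the median log2 fold change was 0.62, or 0.24 with the B cell marker sum as a covariate. The summed level of that list overlapped between the doses, at 3479 to 5683 CPM with 2% RPS and 4280 to 5666 CPM with 10% RPS, and mouse 3 on 2% RPS had the highest sum of the 10.

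Immunoglobulin segments as a class leaned the same way. Of 115 tested 89 had a higher estimate, 22 of them with an unadjusted p under 0.05 against 1 lower, and their median log2 fold change was 0.72. Over all genes tested 2.39% were higher at that level. In 1 of the 115 every mouse on 10% RPS was above every mouse on 2% RPS. Between 5 and 0% RPS, measured in other mice, the median over 107 segments was 0.73. Immunoglobulin counts took 0.0714 to 0.241% of a library with 2% RPS and 0.148 to 0.209% with 10% RPS. Single V segments share sequence, so reads could be divided between them and their separate values are uncertain. Igkv4-57-1, a kappa V segment, was 0.395, 0.625, 0.959, 0.327, and 1.22 CPM with 2% RPS and 2.04, 2.82, 2.51, 2.62, and 2.30 CPM with 10% RPS, and every mouse on 10% RPS was above every mouse on 2% RPS. Its log2 fold change was 1.76 (95% interval 1.07 to 2.45), with an adjusted p of 0.38 in edgeR and 0.000593 in DESeq2. DESeq2 also passed Igkv3-5 (log2 fold change 3.59, adjusted p = 0.0059), which did not reach the count filter of the edgeR test.

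Rel was the gene with the lowest p of all. It encodes c-Rel, an NF-kappa B subunit used by activated lymphocytes, and lies at chr11:23686847-23721264 on the reverse strand in GRCm39. Rel was 13.6, 14.5, 15.3, 13.1, and 14.2 CPM in mice 1 to 5 on 2% RPS and 25.4, 20.7, 21.8, 17.8, and 22.1 CPM in mice 1 to 5 on 10% RPS. No mouse overlapped with the other diet, and neither mouse 3 on 2% RPS nor mouse 2 on 10% RPS stood apart, unlike in the B cell markers. Its log2 fold change was 0.61 (95% interval 0.39 to 0.83), with an adjusted p of 0.38 in edgeR and 0.000586 in DESeq2. With 0 and 5% RPS its mean was 12.6 ± 4.21 and 15.4 ± 1.88 CPM (SD, n = 5), and the groups overlapped.

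In 38 genes (0.254% of those tested) every mouse on 10% RPS was above every mouse on 2% RPS, and in 54 genes (0.361%) every mouse was below. Of these, 9 higher and 12 lower genes differed by 1.5-fold or more, and they are the genes shown by mouse in the plot of named genes. Lack of overlap and size of the fold change chose them, so their separation is a description.

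**Figure D3:**
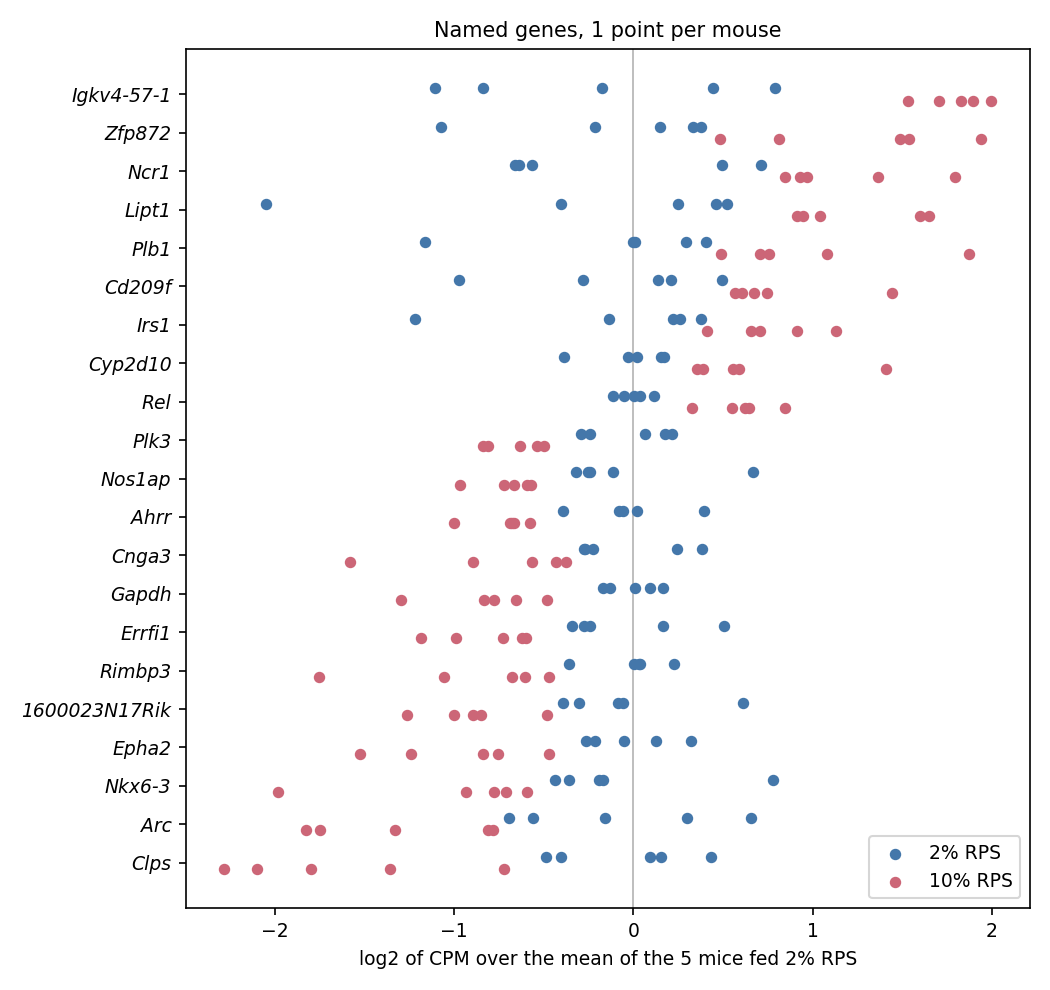
Level of 9 higher and 12 lower genes in each mouse, as log2 of CPM over the mean of the 5 mice on 2% RPS (horizontal axis), with 1 point per mouse. All points of one diet lie on 1 side of the other diet in every row, the condition by which the genes were picked, and Rel and Plk3 have narrow spreads within both diets.

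The other 7 of the named higher genes were low in level, with means of at most 6.36 CPM on either diet. Plb1, a brush border phospholipase, was 0.937 to 2.78 CPM with 2% RPS and 2.94 to 7.68 CPM with 10% RPS (log2 fold change 1.07, 95% interval 0.40 to 1.75). Ncr1, an activating receptor of NK cells, was 0.139 to 0.36 CPM with 2% RPS and 0.395 to 0.763 CPM with 10% RPS, with 3 counts in the smallest case (1.18, 0.37 to 1.99). Cyp2d10, a cytochrome P450, had a log2 fold change of 0.72 (0.26 to 1.17), or 0.47 without mouse 2 on 10% RPS. Irs1, an adaptor of the insulin receptor, had 0.79 (0.16 to 1.42), and Cd209f, a C-type lectin, 0.84 (0.16 to 1.51). Zfp872, a zinc finger gene, had 1.30 (0.53 to 2.07), and Lipt1, which attaches lipoate to mitochondrial enzymes, 1.17 (0.34 to 2.00) from levels of at most 0.641 CPM, with 1 count in its lowest library. Their adjusted p was 0.985 in each case.

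Among the 12 named lower genes, 3 that DESeq2 also passed were Plk3, Epha2, and Errfi1. Plk3, a kinase induced by stress and growth factors, was 54.5, 72.7, 67.2, 52.5, and 74.6 CPM in mice 1 to 5 on 2% RPS and 35.9, 41.6, 36.6, 45.6, and 44.3 CPM in mice 1 to 5 on 10% RPS. The lowest 2% RPS mouse was above the highest 10% RPS mouse. Its log2 fold change was -0.66 (95% interval -0.91 to -0.41), with an adjusted p of 0.38 in edgeR and 0.000773 in DESeq2.

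Epha2, a receptor tyrosine kinase of epithelial contacts, was 85.4, 111, 73.5, 76.1, and 96.5 CPM with 2% RPS and 37.5, 49.5, 30.7, 63.7, and 52.4 CPM with 10% RPS. Errfi1, a feedback inhibitor of the EGF receptor, was 159, 267, 155, 148, and 210.4 CPM with 2% RPS and 82.6, 124, 94.7, 122, and 113 CPM with 10% RPS. In both genes all 10% RPS mice were below all 2% RPS mice, and mouse 2 on 2% RPS was the highest. The log2 fold change was -0.92 for Epha2 (95% interval -1.33 to -0.51, adjusted p = 0.798 in edgeR and 0.00253 in DESeq2) and -0.81 for Errfi1 (-1.18 to -0.43, adjusted p = 0.914 and 0.00937).

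Gapdh, the glycolytic enzyme, was the other gene lower by DESeq2 (log2 fold change -0.78, 95% interval -1.09 to -0.48, adjusted p = 0.38 in edgeR and 0.0007 in DESeq2). Its level of 6.97 to 19.2 CPM is far under what this gene usually has, and many processed copies of it lie in the genome, so its counts are uncertain. Arc, an immediate early gene known from neurons, was 1.27 to 3.23 CPM with 2% RPS and 0.579 to 1.19 CPM with 10% RPS (-1.23, -1.92 to -0.54). Clps, the cofactor of pancreatic lipase, was 0.393 to 0.741 CPM with 2% RPS and 0.113 to 0.334 CPM with 10% RPS (-1.55, -2.33 to -0.77), and its lowest library held 3 counts. Nos1ap had a log2 fold change of -0.70 (-1.11 to -0.28), Nkx6-3, a homeobox gene, -0.95 (-1.67 to -0.23), Cnga3, a cyclic nucleotide-gated channel, -0.72 (-1.28 to -0.15), Rimbp3 -0.81 (-1.41 to -0.22), and 1600023N17Rik -0.86 (-1.47 to -0.25).

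Ahrr, the repressor that the aryl hydrocarbon receptor induces against itself, was 2.22, 2.88, 2.10, 1.67, and 2.07 CPM with 2% RPS and 1.47, 1.37, 1.09, 1.38, and 1.36 CPM with 10% RPS (log2 fold change -0.71, 95% interval -1.13 to -0.29). Cyp1a1, the best known target of the same receptor, was 0.89, 3.58, 0.773, 0.851, and 0.846 CPM with 2% RPS and 0.466, 0.158, 0.386, 0.81, and 0.34 CPM with 10% RPS (-1.72, -2.88 to -0.56). The Ahrr groups did not overlap. In Cyp1a1 mouse 2 on 2% RPS stood high, and mouse 4 on 10% RPS reached the 2% RPS mice. Without that mouse 2 the log2 fold change of Cyp1a1 was -1.002. Over the xenobiotic metabolism list 24 of 32 genes had a lower estimate, 5 of them with an unadjusted p under 0.05 against 1 higher, and the median log2 fold change was -0.10. Cyp2c55, a cytochrome P450 at 2880.1 to 5227 CPM, had -0.34 (-0.63 to -0.06), and Abcb1a, a drug efflux pump, -0.33 (-0.61 to -0.05).

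The EGF receptor genes leaned lower as a list. Of 12 tested, 10 had a lower estimate and 5 of these had an unadjusted p under 0.05, with a median log2 fold change of -0.30. The 5 include Errfi1, the feedback inhibitor already among the named genes. Over all genes tested 2.43% were lower at that level. Areg, a ligand of the EGF receptor, was 104, 100.2, 53.8, 68.5, and 115 CPM with 2% RPS and 44.3, 26.1, 42.2, 43.8, and 67.5 CPM with 10% RPS. Only mouse 5 on 10% RPS reached into the 2% RPS range. Fold changes on the log2 scale were -0.98 for Areg (95% interval -1.58 to -0.38), -0.50 for Hbegf (-0.93 to -0.08), and -0.19 for Tgfa (-0.37 to -0.01), both of them further ligands of the receptor. The adjusted p was 0.985 for each ligand.

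Immediate early genes, which cells switch on within minutes of a growth factor or stress signal, were lower by estimate in 17 of 20 cases with a median of -0.26, and 3 had an unadjusted p under 0.05. Fosl1, an AP-1 subunit, was 2.68 to 6.23 CPM with 2% RPS and 1.48 to 3.48 CPM with 10% RPS (log2 fold change -0.96, 95% interval -1.57 to -0.35). Dusp1, a phosphatase of MAP kinases, was 40.7, 96.5, 43.2, 21.3, and 29.7 CPM with 2% RPS and 22.5, 21.7, 23.2, 23.7, and 28.4 CPM with 10% RPS (-0.95, -1.76 to -0.15). Atf3, a stress-induced transcription factor, was 27.9 to 108 CPM with 2% RPS and 14.0 to 33.5 CPM with 10% RPS (-1.05, -1.94 to -0.16). Mouse 2 on 2% RPS was the highest in both Dusp1 and Atf3, and without it the log2 fold changes were -0.50 and -0.55.

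Promoters of several of these lower genes hold the full cAMP response element, the 8 letters TGACGTCA, which read the same on both strands. They are shown because the genes lay lower together, and the motif was picked after the values were seen. RefSeq promoters of GRCm38.p6, reaching from 250 bases before to 50 bases after the start of the gene, were searched, and the motif is in capitals in the 100 bases around it.
Epha2, chr4:141301142-141301241, forward strand: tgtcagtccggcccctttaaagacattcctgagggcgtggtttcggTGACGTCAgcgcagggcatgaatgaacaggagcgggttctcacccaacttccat
Errfi1, chr4:150854973-150855072, forward strand: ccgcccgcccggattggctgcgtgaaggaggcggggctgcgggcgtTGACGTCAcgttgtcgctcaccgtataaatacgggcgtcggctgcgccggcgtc
Areg, chr5:91139492-91139591, forward strand: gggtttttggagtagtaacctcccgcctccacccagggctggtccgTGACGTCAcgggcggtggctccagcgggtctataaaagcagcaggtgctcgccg
Dusp1, chr17:26508562-26508661, reverse strand: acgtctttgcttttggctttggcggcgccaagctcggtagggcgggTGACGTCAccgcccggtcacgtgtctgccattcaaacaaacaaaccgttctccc
The motif began at base -33 of Epha2, -51 of Errfi1, -61 of Areg, and -143 of Dusp1, counted from the first transcribed base as 1. It was in 2 of the 8 named lower genes with a RefSeq promoter and in 0 of the 8 named higher genes, in 2 of 8 EGF receptor genes, and in 2 of 16 immediate early genes, with Errfi1 counted among both the named lower and the EGF receptor genes. Of the genes with an unadjusted p under 0.01 it was in 4 of 39 with a lower estimate (10.3%) and in 2 of 41 with a higher one (4.88%). The 4 are Maff and the Epha2, Errfi1, and Areg shown above, so they are not a further result. Over all genes tested, 373 of 11404 promoters held it (3.27%), and over all RefSeq promoters 588 of 32851 did (1.79%). These are matches of letters, and no binding was measured.

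Hypoxia targets, the genes that HIF1 switches on for glycolysis and blood supply, were the list with the most members at an unadjusted p under 0.05. Of 20 genes 18 had a lower estimate, 7 of them at that level, with a median log2 fold change of -0.19, and none passed the threshold. Over all genes tested 2.43% were lower at that level. Some smaller lists had a larger share of members there, with 5 of 12 EGF receptor genes lower and 3 of 7 epithelial oxidases higher. Stc1, a secreted glycoprotein, was 7.02, 4.55, 4.67, 5.37, and 2.05 CPM with 2% RPS and 1.22, 1.08, 2.47, 2.62, and 2.34 CPM with 10% RPS. Slc2a1, the glucose transporter GLUT1, was 268, 269, 279, 314, and 194 CPM with 2% RPS and 152, 184, 185, 233, and 175 CPM with 10% RPS. In both genes mouse 5 on 2% RPS was the only mouse of its diet within the 10% RPS range.

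The log2 fold change was -1.28 for Stc1 (95% interval -2.01 to -0.56) and -0.51 for Slc2a1 (-0.80 to -0.22). Hk2, which starts glycolysis by phosphorylating glucose, had -0.54 (-0.87 to -0.21), and Vegfa, the growth factor of blood vessels, -0.30 (-0.52 to -0.08). Between 5 and 0% RPS, in other mice, Stc1 and Slc2a1 had log2 fold changes of -1.97 and -0.75 with adjusted p of 0.029 and 0.024 in edgeR. Their means with 0% RPS were 8.85 ± 2.06 and 348 ± 47.3 CPM (SD, n = 5), and with 5% RPS 2.22 ± 1.13 and 207 ± 27.8 CPM.

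The epithelial oxidases had the second highest median of the lists. All 7 tested genes had a higher estimate with 10% RPS, 3 of them with an unadjusted p under 0.05, and the median log2 fold change was 0.94, or 0.54 without mouse 3 on 10% RPS. Nos2, the inducible nitric oxide synthase, was 1.24, 1.42, 1.76, 0.491, and 2.21 CPM with 2% RPS and 2.19, 5.29, 8.81, 2.00, and 4.15 CPM with 10% RPS. Duox2, the dual oxidase that releases hydrogen peroxide into the lumen, was 93.6, 74.2, 96.4, 79.3, and 145 CPM with 2% RPS and 77.0, 249, 343, 124, and 244 CPM with 10% RPS. Mice 2, 3, and 5 on 10% RPS were above all 2% RPS mice in both genes, and mice 1 and 4 were within or near their range.

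Duoxa2, the maturation factor of Duox2, followed the same mice, with 8.61 to 28.7 CPM in 2% RPS mice and 11.6 to 78.3 CPM in 10% RPS mice. The log2 fold change was 1.65 for Nos2 (95% interval 0.64 to 2.65), 1.09 for Duox2 (0.22 to 1.95), and 1.51 for Duoxa2 (0.28 to 2.74), with an adjusted p of 0.985 in edgeR and of 0.0859, 0.524, and 0.548 in DESeq2. The mice high in oxidases were not in all cases those high in B cell markers, since mouse 2 on 10% RPS had the second highest Duox2 and the lowest B cell marker sum of its diet. Between 5 and 0% RPS the median of the list was 1.26.

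**Figure D4:**
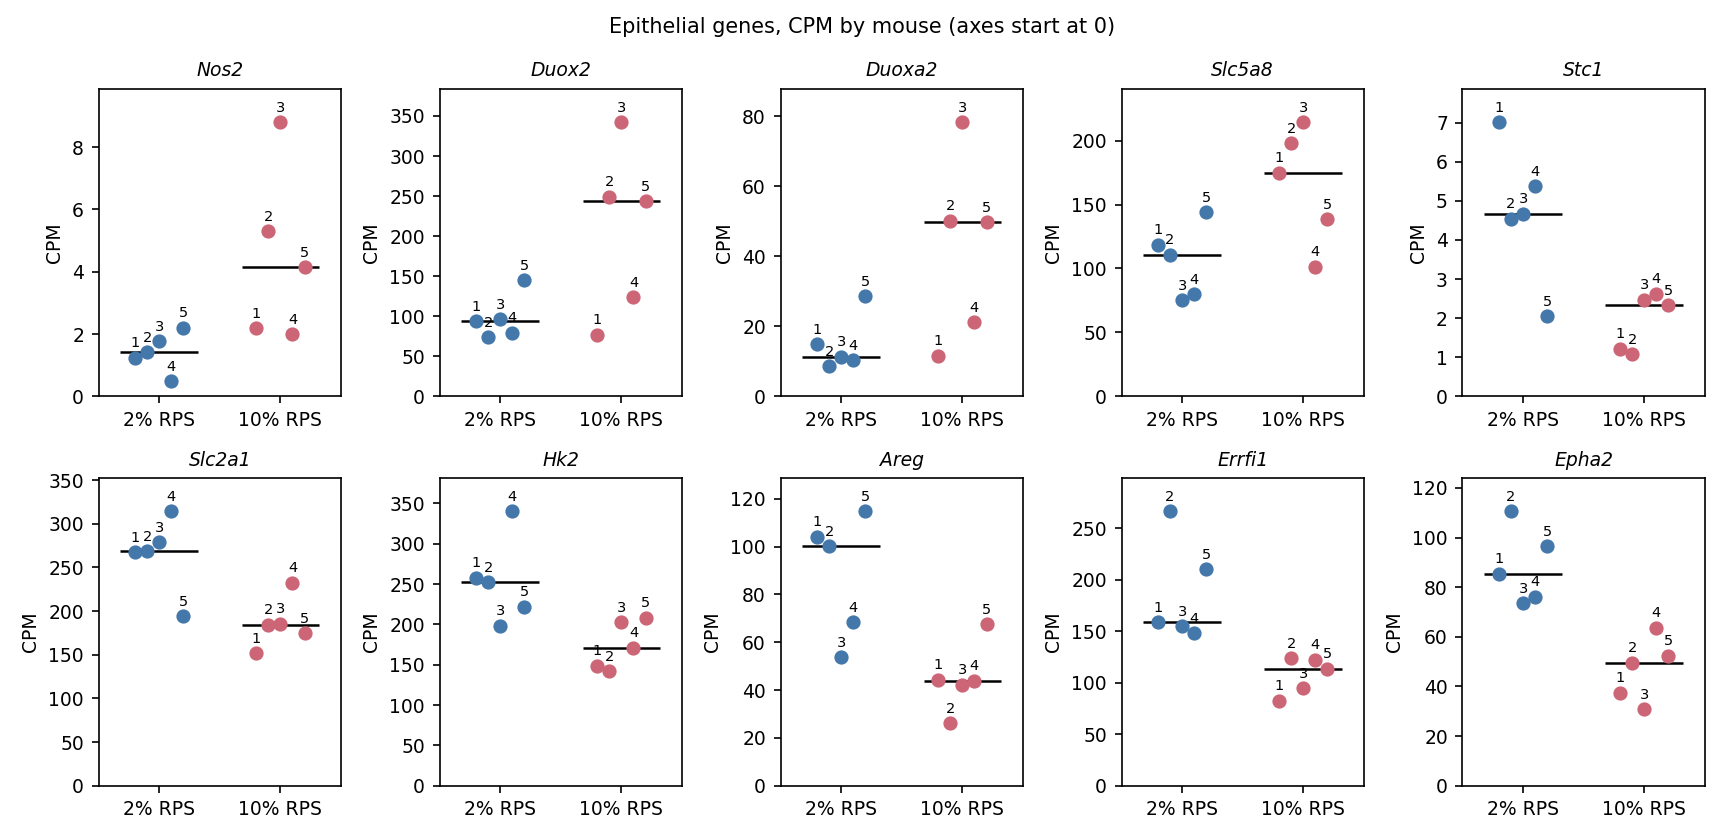
CPM (vertical axes from 0) of 10 epithelial genes in each mouse on 2 or 10% RPS, with points numbered by mouse and a line at the group median. Nos2, Duox2, Duoxa2, and Slc5a8 are higher in 3 of 5 mice on 10% RPS than in any on 2% RPS, and in Errfi1 and Epha2 the groups do not overlap.

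SCFA carriers and receptors gave no common direction. Of 11 tested, 6 had a higher and 5 a lower estimate, with a median log2 fold change of 0.02. Slc5a8, the sodium-coupled butyrate carrier, was 119, 111, 75.4, 79.8, and 144 CPM with 2% RPS and 175, 198, 215, 101, and 138 CPM with 10% RPS. Mice 1, 2, and 3 on 10% RPS were above all 2% RPS mice, and mice 4 and 5 were not (log2 fold change 0.65, 95% interval 0.14 to 1.15). Or51e2, an olfactory-type receptor of SCFAs, was 2.20 to 4.58 CPM with 2% RPS and 1.62 to 2.33 CPM with 10% RPS (-0.55, -1.02 to -0.09).

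Goblet cell genes, for mucin and its packaging, were lower by estimate in 13 of 14 cases with a median of -0.30, the lowest of all lists, and 5 of them had an unadjusted p under 0.05. Muc2, the gel-forming mucin, was 2267, 2219, 3944, 2190.3, and 1277 CPM with 2% RPS and 1737, 1633, 1286, 1671, and 1542 CPM with 10% RPS. The groups overlapped because mouse 5 on 2% RPS had the lowest level of all 10, while mouse 3 on 2% RPS had the highest. The log2 fold change was -0.60 for Muc2 (95% interval -1.10 to -0.09), or -0.34 without mouse 3 on 2% RPS. It was -0.38 for Spdef, the transcription factor of goblet cells (-0.69 to -0.07), -0.35 for Spink4 (-0.68 to -0.02), and -0.37 for Clca1, a mucus protease (-0.71 to -0.02). The goblet cell markers summed to 5659 to 11622 CPM with 2% RPS and 6612 to 7870.1 CPM with 10% RPS. Epithelial markers had medians of 29835 and 27109.9 CPM, and their part in the lower epithelial genes was not tested.

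Antimicrobial proteins split. Saa1, an acute phase protein, had a log2 fold change of 0.74 (95% interval 0.02 to 1.45), Lyz1, a lysozyme, 1.60 (0.15 to 3.04), and Zg16, a lectin of mucus, -0.40 (-0.81 to -0.00). Saa1 was 0.48 without mouse 2 on 10% RPS, and Zg16 was -0.27 without mouse 4 on 2% RPS. Of the 12 tested 8 had a higher and 4 a lower estimate. Lyz1 was high in the mice with high B cell markers, at 13.7 CPM in mouse 3 on 2% RPS and 3.98 CPM in mouse 2 on 10% RPS. Between 5 and 0% RPS Saa1 and Zg16 had log2 fold changes of 1.63 and -0.71, with adjusted p of 0.035 and 0.034 in edgeR.

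Of 32 type 1 interferon-stimulated genes 30 had a higher estimate with a median log2 fold change of 0.19 that was 0.12 without mouse 2 on 10% RPS, and 4 of these had an unadjusted p under 0.05. Their summed level was 652 to 933 CPM with 2% RPS and 666 to 1238 CPM with 10% RPS, high in mice 1, 2, and 3 and low in mice 4 and 5 on 10% RPS. Oas1a, which senses double-stranded RNA, had a log2 fold change of 0.30 (95% interval 0.04 to 0.56), and Bst2, which tethers virus particles, 0.42 (0.06 to 0.78). Oasl1, a repressor of Irf7 translation, had a lower estimate. It was 43.1, 38.3, 44.5, 52.2, and 39.1 CPM with 2% RPS and 26.6, 33.4, 31.9, 34.4, and 31.8 CPM with 10% RPS, without overlap (-0.46, -0.68 to -0.24, adjusted p = 0.914 in edgeR and 0.054 in DESeq2). All 14 genes of the MHC class I list had a higher estimate, with a median of 0.18 that was 0.05 with the B cell marker sum as a covariate, and Psmb9, an immunoproteasome subunit, had 0.47 (0.08 to 0.86).

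Genes of fat handling had lower estimates in most cases, and those of ion transport, junctions, and the Ly6 family were divided. Creb3l3, a transcription factor of lipid absorption, had a log2 fold change of -1.09 (95% interval -2.08 to -0.09), and Dgat2, which makes triglycerides, -0.52 (-0.99 to -0.05), in a list of fat absorption genes with 11 of 13 lower and a median of -0.21, which was -0.05 without mouse 4 on 2% RPS. Fat cell markers (4 genes) summed to 38.9, 62.8, 39.0, 150.3, and 79.6 CPM with 2% RPS and 22.1, 43.4, 26.4, 122, and 27.4 CPM with 10% RPS, highest in mouse 4 on both diets, and their part in these results was not tested. Pdk4, a switch from glucose to fat oxidation, had -0.76 (-1.49 to -0.03), and 20 of 23 fatty acid oxidation genes had a lower estimate with a median of -0.08. Of 22 sodium and chloride transport genes 8 had a higher and 14 a lower estimate, with a median of -0.10. Slc9a3, the sodium-hydrogen exchanger of the brush border, had -0.72 (-1.41 to -0.02), and Scnn1g, a subunit of the epithelial sodium channel, -1.27 (-2.51 to -0.03). Tight and gap junction genes had 9 higher and 16 lower estimates, from -0.93 to 0.81 with a median of -0.04. Cldn4, a tight junction claudin, was 128 to 299.6 CPM with 2% RPS and 83.8 to 182 CPM with 10% RPS (-0.79, -1.45 to -0.13). In the Ly6 family, small surface proteins on a lipid anchor, 6 genes had a higher and 8 a lower estimate, from -2.34 to 1.26 with a median of -0.07. Psca had -2.34 (-4.21 to -0.46) from levels of at most 1.44 CPM, and Ly6g6c -0.75 (-1.25 to -0.25). The groups overlapped in all of the genes named here.

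Smooth muscle genes had a higher estimate in 15 of 16 cases with a median of 0.25 that was 0.15 without mouse 4 on 2% RPS, and 2 had an unadjusted p under 0.05. Actg2, the gamma actin of gut muscle, was 387, 475, 377, 389, and 665 CPM with 2% RPS and 924, 903, 1021, 385, and 558 CPM with 10% RPS. Mice 1, 2, and 3 on 10% RPS were high, and mice 4 and 5 were within the 2% RPS range (log2 fold change 0.73, 95% interval 0.14 to 1.31). Cnn1, a calponin of contractile cells, had 0.52 (0.08 to 0.95). Of 23 collagen and matrix genes 19 had a higher estimate, with a median of 0.18 that was 0.11 without mouse 1 on 2% RPS, and 1 of them had an unadjusted p under 0.05, Col12a1, a fibril-associated collagen (0.48, 0.16 to 0.81). The 5 smooth muscle markers, which are also in the list, summed to 2631 to 4569 CPM with 2% RPS and 3129 to 5593 CPM with 10% RPS, and the part of the amount of muscle in each sample was not tested.

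No gene had an unadjusted p under 0.05 in the lists of enteroendocrine hormones (12 tested), stem cell and Wnt targets (14), cell cycle (28), cholesterol synthesis (21), vitamin D receptor targets (12), the unfolded protein response (22), or enteric neurons and glia (19). Cell cycle genes had log2 fold changes between -0.36 and 0.39, and cholesterol genes between -0.17 and 0.15. Of 19 clock genes 1 had an unadjusted p under 0.05, Bhlhe40, a repressor in the clock loop that hypoxia also induces (-0.40, 95% interval -0.66 to -0.14). Oxidative phosphorylation genes had a lower estimate in 28 of 36 cases, the symbol Atp5po standing for 2 identifiers, with a median of -0.05, and Uqcrb, a subunit of complex 3, had -0.22 (-0.43 to -0.01).

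**Figure D5:**
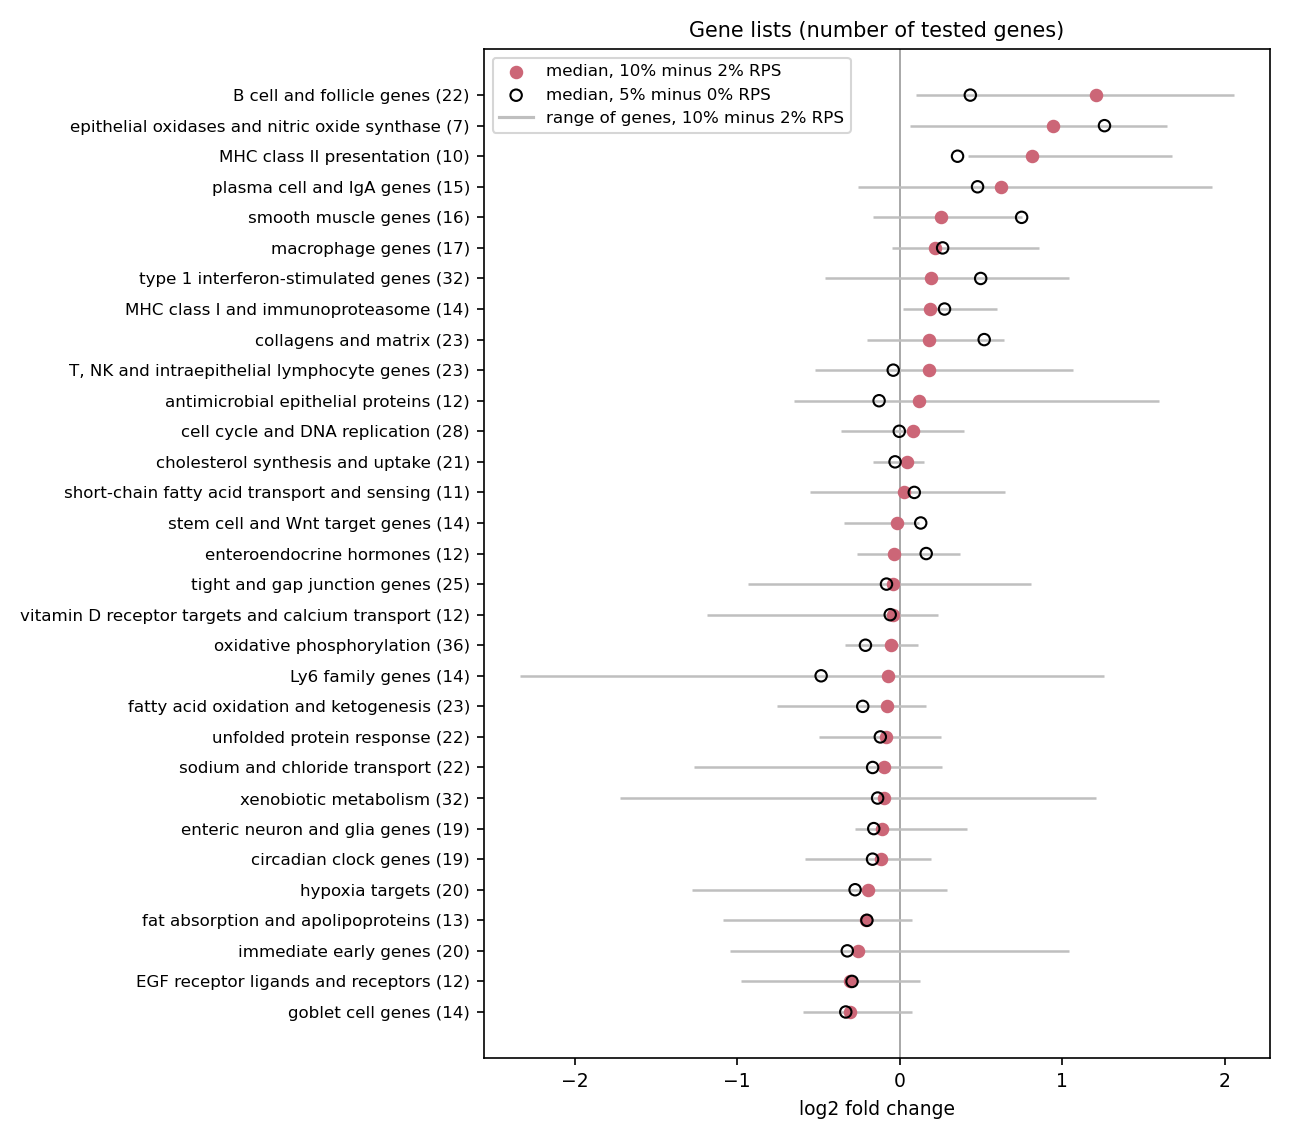
Median log2 fold change of each of 31 gene lists for 10% minus 2% RPS (filled points) and, in other mice, 5% minus 0% RPS (open points), with gray lines from the lowest to the highest gene for 10% minus 2% RPS. B cell genes lie at the top with a median of 1.21 and goblet cell genes at the bottom with -0.30.

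The comparison of 5 with 0% RPS shares no mouse with that of 10 with 2% RPS, so its estimates could be set beside those above. It passed 28 genes higher (0.188%) and 37 lower (0.248%) of 14925 tested. No gene had passed the edgeR threshold between 10 and 2% RPS, so there was none to follow. Of the 12 genes with an unadjusted p under 0.001, 4 higher and 8 lower, 11 had the same direction with 5% as against 0% RPS, 3 of them with an unadjusted p under 0.05 there, and 0 passed the threshold. Over all genes 50.2% had a higher and 49.8% a lower estimate with 5% than with 0% RPS. That is the split within this comparison alone. The share of all genes with the same direction in both comparisons was not computed, so 11 of 12 has no background beside it. Of the 8 genes that DESeq2 passed, 7 could be read with 5% and 0% RPS, and all 7 had the same direction. These 7 are among the 12 above, and all but Jchain are also named genes, so these counts share genes and are not separate results. Among the named genes 7 of 8 higher and 9 of 12 lower kept it, and Zfp872 (-0.36), Clps (0.03), 1600023N17Rik (0.49), and Rimbp3 (0.59) did not.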

How the data were processed

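The table used here holds 20 cecum libraries, 5 per diet, which the authors made as stranded poly(A) libraries. Its deposited values are raw read counts per gene, which the authors made by mapping to GRCm39 and counting, with no normalization. The annotation release, the strand setting, and how multi-mapping reads were counted are not given in the sources used here. Names and GRCm39 coordinates came from GENCODE, in which 19827 identifiers were found and 60 were not.

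Counts of the 10 mice on 10 and 2% RPS were fitted in R 4.3.3 with edgeR 4.0.16 (filterByExpr with minimum count 10 and total 15, TMM, quasi-likelihood test with robust empirical Bayes). DESeq2 1.42.0 and sva 3.50.0 gave alternatives. The 10 mice on 5 and 0% RPS were fitted alone in the same way. Scaled CPM and log2 CPM (prior count 2) were computed here from the counts. PERMANOVA used Euclidean distances. Scripts were tested on simulated data. Figures were drawn in Python 3.11.15 with matplotlib 3.10.9. A tested gene had a median of 563 counts in a mouse. A level of 3 counts equals 0.0703 to 0.147 CPM, a limit of counting error only. Every pair of mice on one diet differed beyond sampling noise (chi-square per degree of freedom of 14.2 to 143 over 20 pairs).

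Mice were grouped by the treatment in the labels and numbered in accession order. The comparison and the gene lists were chosen with earlier results of these data known. Named genes were the up to 12 in each direction with the lowest p among those with no overlap and a fold change of at least 1.5, since none passed the threshold, and up to 4 members of each list with the lowest p. A few genes of the lists are not reported here. The B cell covariate was chosen after seeing the data. Alternatives were DESeq2's size factors and test, no filter, all 4 diets in 1 fit, no robust option, 1 surrogate variable, no immunoglobulin genes, no fold threshold, and each mouse left out.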

Additional observations from a re-analysis of the deposited data

Results flagged for a closer look

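In 31 of 190 sets of 5 mice (a gene's level, a summed level, a share, or a score on 1 diet) 1 mouse stood apart from the other 4, by the gap between it and its nearest neighbour. Chance alone sets apart about 1 in 20 groups, and sets that share genes or mice are not independent. The mouse apart was mouse 3 on 2% RPS in 17 of them and mouse 2 on 10% RPS in 7.

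B cell markers summed to 204 CPM in mouse 3 on 2% RPS, where the others had 2.05 to 24.1 CPM, and to 8.45 CPM in mouse 2 on 10% RPS, where the others had 136 to 175 CPM. Their scores on the first principal component were 44.3 against -41.4 to -19.7 and -23.9 against 20.2 to 30.4. The same pair was apart in Ms4a1 (28.3 CPM against 0.451 to 4.94 CPM on 2% RPS, 2.55 CPM against 31.3 to 42.9 CPM on 10% RPS), in Cd83 (19.98 CPM against 2.67 to 5.34 CPM, 3.45 CPM against 18.0 to 22.8 CPM), in H2-Ob (52.8 CPM against 1.77 to 7.597 CPM, 5.13 CPM against 47.5 to 59.0 CPM), and in Ciita (6.16 CPM against 0.833 to 2.06 CPM, 1.79 CPM against 4.66 to 5.47 CPM).

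Beyond those genes, mouse 3 on 2% RPS was apart in the MHC class II sum (1413 CPM against 250.5 to 441 CPM), in H2-Aa (165 CPM against 56.7 to 86.4 CPM), and in H2-Eb1 (171 CPM against 40.7 to 63.7 CPM). It was apart in Ebf1 (14.5 CPM against 4.50 to 7.29 CPM), in T cell markers (35.1 CPM against 8.65 to 12.3 CPM), in Cd2, an adhesion receptor of T cells (8.88 CPM against 0.988 to 1.77 CPM), and in the share of immunoglobulin counts (0.241% against 0.0714 to 0.114%). Further cases were Lyz1 (13.7 CPM against 1.74 to 4.58 CPM), Lyz2 (168 CPM against 47.7 to 80.8 CPM), Nos1ap (13.2 CPM against 6.68 to 7.73 CPM), and Nkx6-3 (1.61 CPM against 0.692 to 0.833 CPM).

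Mouse 2 on 2% RPS was apart in Cyp1a1 (3.58 CPM against 0.773 to 0.89 CPM) and in Atf3 (108 CPM against 27.9 to 41.2 CPM). Mouse 4 on 2% RPS was apart in epithelial markers (40321 CPM against 29222 to 30959 CPM) and in 1600023N17Rik (1.18 CPM against 0.588 to 0.741 CPM). On 10% RPS mouse 2 was apart in Cyp2d10 (10.3 CPM against 4.96 to 5.82 CPM), mouse 3 in Cd209f (1.22 CPM against 0.667 to 0.755 CPM), mouse 4 in fat cell markers (122 CPM against 22.1 to 43.4 CPM), and mouse 5 in Or51e2 (1.62 CPM against 2.24 to 2.33 CPM).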

How the results depend on the processing

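The count of 0 genes in either direction by edgeR did not move with DESeq2's size factors, no filter, all 4 diets in 1 fit, no robust option, 1 surrogate variable, the B cell markers as a covariate, immunoglobulin genes left out, no fold threshold, or any mouse left out (range 0 to 0). DESeq2's Wald test passed 4 higher and 4 lower. At an unadjusted p under 0.05 the main test had 358 higher and 363 lower genes, the surrogate variable gave 1129 and 832, and the B cell covariate gave 869 and 912. Leaving out mouse 3 on 2% RPS gave 1155 and 552 with a lowest adjusted p of 0.065, and leaving out mouse 1, 2, or 3 on 10% RPS gave 255 and 203, 568 and 359, or 202 and 221. Of the genes followed with 5 against 0% RPS, 0 as planned, 7 moved the same way when chosen by DESeq2 and 11 when chosen by an unadjusted p under 0.001. The 7 are among the 11. The share of variance ranged from 15.1 to 30.9% with 1 mouse left out, the highest without mouse 3 on 2% RPS. With the B cell markers as a covariate the estimates of H2-Eb1 (-0.083) and Cd2 (-0.13) changed sign, as did the medians of the B cell, MHC class II, T cell, and oxidative phosphorylation lists. It moved by over 1.5 times the log2 fold changes of H2-Aa (0.10), Ciita (0.05), H2-Ob (0.36), Ebf1 (0.13), Cd83 (0.14), Ms4a1 (0.63), Igha (0.24), Lyz1 (0.48), Lyz2 (0.12), Bst2 (0.23), Psmb9 (0.25), Atf3 (-0.41), Hbegf (-0.28), Pdk4 (-0.47), Or51e2 (-0.32), Nkx6-3 (-1.47), Clca1 (-0.57), and Slc9a3 (-1.16). The surrogate variable did so for H2-Aa (0.43), Ciita (0.55), Ebf1 (0.41), Cd83 (0.79), and Lyz2 (0.47). The cause was not tested. No paired analysis was possible because no mouse number occurs on more than 1 diet in the labels, and the numbers mark no shared litter or cage. With 5 mice per diet, low genes such as Lipt1, Ncr1, and Clps rest on few counts.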
